A study of Mus musculus with 6 samples.

Results

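Voltage-gated sodium channels and connexins carry the impulse through the heart, and 7 of their genes were followed in the left ventricle of Glut1-TG mice: the pore subunits Scn4a and Scn10a, the auxiliary beta subunits Scn3b and Scn4b, and the connexins Gja1, Gja5 and Gjc1. Members were taken as every probe set whose platform annotation held exactly 1 gene symbol, that symbol being 1 of the 7. Of the 7 genes 6 had such a probe set, 13 probe sets in all, among 18193 genes with 1 on the array, and Scn4a was not analysed here. The genes were chosen from results of these same arrays, the differences in signal between Glut1-TG and WT hearts among them, so the differences of the members are given as a description of where they lie in the whole table and not as independent tests.

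The samples were the left ventricles of 3 wild-type (WT) and 3 Glut1-TG male mice, 1 Affymetrix expression array each. All were of the FVB strain and 11 to 12 weeks old, were kept on standard chow and had no further treatment. Glut1-TG mice carry the human glucose transporter Glut1 under the alpha-myosin heavy chain promoter, which is active in cardiomyocytes, and WT mice do not carry it. The labels number the arrays without naming animals, so a p-value measures the spread between these arrays, and in whole tissue fewer cells of a type and less RNA per cell cannot be told apart.

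A sodium channel consists of a large alpha subunit, which forms the pore, and small beta subunits with a single membrane span and an extracellular immunoglobulin-like domain, which change its gating and its place in the membrane. Its opening gives the upstroke of the action potential in atrial, ventricular and Purkinje cells. Connexins assemble into gap junction channels at the intercalated disc, through which the current passes to the next cell. In the ventricle Gja1 (Cx43) is the connexin of working cardiomyocytes, Gja5 (Cx40) is found in the His-Purkinje system, the atria and arterial endothelium, and Gjc1 (Cx45) in nodal cells and vascular smooth muscle.

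The signals are linear intensities, scaled before deposit so that the trimmed mean of each array is 500. The median signal over probe sets ran from 171 to 187 on 5 arrays and was 213 on Glut1-TG replicate 1. For each gene the brightest probe set (by mean log2 signal) was taken, genes under a mean signal of 115 were left out, and 13178 genes were fitted with limma and adjusted together by Benjamini-Hochberg. A gene is called here at an adjusted p under 0.05, a limit that 34 higher and 79 lower genes passed. The mouse gene Slc2a1, which encodes Glut1, had 3 probe sets that did not agree. The brightest, 1426600_at, had a signal of 489 ± 70.0 (SD, n = 3) in WT and 787 ± 55.4 in Glut1-TG hearts (limma adjusted p = 0.11). The other probe sets were lower on every Glut1-TG array. For 1434773_a_at the change was the largest, from 414 ± 14.4 in WT to 88.6 ± 33.5 in Glut1-TG hearts (log2 fold change -2.30, limma adjusted p = 0.035 over all probe sets). For 1426599_a_at the log2 fold change was -1.19 (adjusted p = 0.25). Whether any of the 3 probe sets reads the human transgene was not tested, so they do not check the labels.

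Of the 4 members that could be tested, Scn4b was higher in Glut1-TG hearts, while Scn3b, Gja1 and Gjc1 did not pass. Among all genes tested 0.258% were called higher and 0.857% in either direction, and nothing is read from this count because the comparison was known when the members were chosen. Scn10a and Gja5 stayed under the signal of 115 and were not tested.

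**Figure D1:**
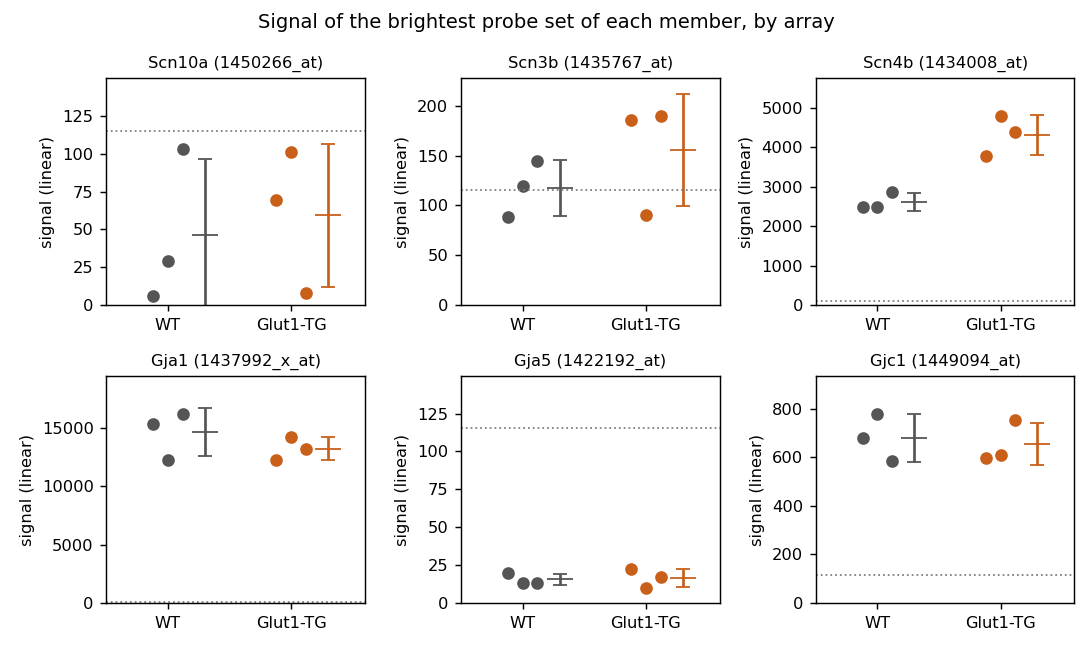
Signal on a linear scale (vertical axis, from 0, a different range in each panel) of the brightest probe set of each of 6 members on the 3 WT (grey) and 3 Glut1-TG arrays (orange, 1 point per array), with the mean and SD beside the points and a dotted line at the filter's signal of 115 (the SD bar of Scn10a in WT ends at the axis). Only in the Scn4b panel do all 3 orange points, 3765 to 4781, lie above all 3 grey points, 2475 to 2860.

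Scn4b encodes the beta-4 subunit, which is joined to the pore by a disulfide bond. The probe set 1434008_at gave signals of 2495, 2475 and 2860 on WT arrays 1, 2 and 3, and of 3765, 4781 and 4388 on Glut1-TG arrays 1, 2 and 3. Every Glut1-TG array lay above every WT array, as in 8.67% of all genes tested. On the log2 scale the WT arrays spanned 0.21, the Glut1-TG arrays 0.34, and the gap between the groups was 0.40. The mean signal was 2610 ± 217 (SD, n = 3) in WT and 4311 ± 512 (SD, n = 3) in Glut1-TG hearts, and the fit gave a log2 fold change of 0.72 (standard error, SE, 0.11) or a fitted ratio of 1.65 (95% confidence interval, CI, 1.39 to 1.95). Its adjusted p over all genes was 0.017 by limma, and by size of change it stood at place 26 of the 34 genes called higher. The call ended without WT replicate 1 (adjusted p = 0.092), without WT replicate 2 (0.091) and without Glut1-TG replicate 3 (0.066), and was kept without any other single array, while the log2 fold change stayed between 0.64 and 0.81. It also ended with eBayes without an intensity trend (0.23) and with the methods' t-test adjusted by Benjamini-Hochberg (0.25).

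The promoter of Scn4b is shown because this was the one member called, with that of Rangrf, a called partner of the sodium channel described further on, and that of Gja1, whose probe sets differed from each other. Each run is the 250 bases before the RefSeq transcription start (build GRCm38.p6), at chr9:45138374-45138623 (plus strand), chr11:68973856-68974105 (minus strand) and chr10:56377050-56377299 (plus strand). Capitals mark matches, on either strand, to the core site of the cyclic AMP response element (TGACG) and to the GC box (GGGCGG). The E-box CACGTG and the TATA box TATAAA were searched as well.
Scn4b: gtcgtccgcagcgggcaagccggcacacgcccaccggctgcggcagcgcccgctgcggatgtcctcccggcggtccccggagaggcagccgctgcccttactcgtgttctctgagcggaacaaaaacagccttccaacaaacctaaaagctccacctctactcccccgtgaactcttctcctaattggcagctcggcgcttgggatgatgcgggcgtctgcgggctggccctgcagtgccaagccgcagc
Rangrf: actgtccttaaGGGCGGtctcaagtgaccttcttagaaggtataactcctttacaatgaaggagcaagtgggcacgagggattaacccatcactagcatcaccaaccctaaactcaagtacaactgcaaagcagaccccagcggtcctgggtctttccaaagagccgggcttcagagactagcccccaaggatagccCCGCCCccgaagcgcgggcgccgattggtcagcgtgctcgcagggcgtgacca
Gja1: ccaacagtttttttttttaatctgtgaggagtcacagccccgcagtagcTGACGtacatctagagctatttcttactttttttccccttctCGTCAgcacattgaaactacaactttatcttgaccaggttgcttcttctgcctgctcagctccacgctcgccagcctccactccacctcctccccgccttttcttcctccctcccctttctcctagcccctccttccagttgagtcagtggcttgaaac
Scn4b held 0 matches to the 4 motifs in this window, Rangrf held 2 GC boxes, and Gja1 held 2 core sites of the cyclic AMP response element. Over the 32851 promoter windows of this length in the table, 17.8% held the core site, 32.7% the GC box, 6.02% the E-box and 12.4% the TATA box. A match is a run of letters and not a measured binding site. Of the 7 members 5 were matched in this table.

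Scn3b, the beta-3 subunit, gave low signals. Its brighter probe set, 1435767_at, gave 88.5, 119.3 and 144.6 on the WT arrays and 185.7, 90.8 and 189.4 on the Glut1-TG arrays. Glut1-TG replicates 1 and 3 lay above all WT arrays and replicate 2 lay among them, so the groups overlapped. The log2 fold change was 0.35 (SE 0.46, 95% CI -0.67 to 1.38), an interval that holds no change as well as a doubling. The other probe set, 1426328_a_at, stayed between 19.1 and 46.0 on all 6 arrays, under the filter.

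Scn10a encodes a pore subunit best known from sensory neurons. Its probe set 1450266_at gave 5.90, 29.4 and 102.8 on the WT arrays and 69.2, 101.0 and 8.20 on the Glut1-TG arrays. All 6 signals were below 115, each group held a value under 10 and a value above 100, and no order of the groups can be read from them. In the RefSeq gene table Scn10a lies next to Scn11a, another pore subunit of sensory neurons, which was also under the filter.

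**Figure D2:**
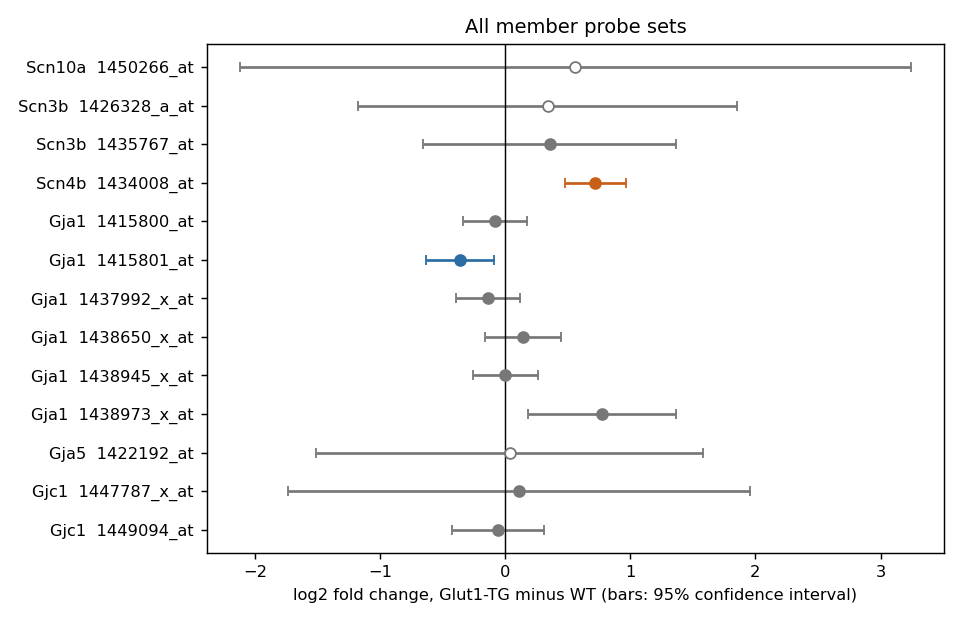
The horizontal axis gives the log2 fold change (Glut1-TG minus WT) of the 13 member probe sets (rows), with 95% confidence intervals from a limma fit over all 34945 probe sets with 1 symbol. Open points have a mean signal under 115; the orange point (Scn4b, 0.72) and the blue point (Gja1 1415801_at, -0.36) are the probe sets whose groups did not overlap.

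Gja1, the main gap junction gene of working myocardium, was read by 6 probe sets, all above the filter. The brightest, 1437992_x_at, gave 15367, 12279 and 16195 on the WT arrays and 12263, 14234 and 13183 on the Glut1-TG arrays. The groups overlapped, and WT replicate 2 lay among the Glut1-TG arrays. The log2 fold change was -0.14 (SE 0.11, 95% CI -0.39 to 0.12, limma adjusted p = 0.69). It was -0.26 without WT replicate 2 and -0.06 without WT replicate 3. It was 0.06 as the mean of the 6 probe sets and also 0.06 after centring on the cardiomyocyte markers, so its sign was not settled.

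The 6 probe sets of Gja1 did not give a single picture. Fitted with all 34945 probe sets, 4 of them had log2 fold changes within 0.2 of 0, and the median over the 6 was -0.04. For 1415801_at, signals of 4619, 3277 and 4216 in WT hearts stood against 3137, 3160 and 3039 in Glut1-TG hearts. All Glut1-TG arrays lay below all WT arrays here, as they did in one direction or the other for 14.4% of all probe sets, but WT replicate 2 was near the Glut1-TG level. By limma over all probe sets 0.243% passed in either direction and 0.0715% as higher. The log2 fold change was -0.36 (SE 0.12, limma adjusted p = 0.43 over all probe sets). For 1438973_x_at the signals were 985.5, 596.7 and 411.2 in WT and 1192, 1094 and 925.8 in Glut1-TG hearts, with a log2 fold change of 0.77 (SE 0.27, adjusted p = 0.44). WT replicate 1 exceeded Glut1-TG replicate 3, so these groups overlapped. Over the 6 arrays the log2 signal of 1438973_x_at had a Pearson correlation of -0.39 to -0.02 with the other 5 probe sets, while 1415800_at, 1437992_x_at and 1438945_x_at had 0.86 to 0.95 among themselves. These are descriptions over 6 arrays of 2 groups. A probe set with a name ending in _x_at may also read a related transcript, and this was not tested.

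Gjc1, the connexin of nodal cells and vascular smooth muscle, gave 678.0, 778.2 and 582.7 on the WT arrays and 596.1, 610.4 and 752.2 on the Glut1-TG arrays with the probe set 1449094_at. The groups overlapped over most of their range. The log2 fold change was -0.06 (SE 0.16, 95% CI -0.42 to 0.31, limma adjusted p = 0.93). The dimmer probe set 1447787_x_at ran from 30.6 to 300.4 in WT and from 92.2 to 311.3 in Glut1-TG hearts, and its 95% CI ran from -1.74 to 1.96.

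Gja5, the connexin of the His-Purkinje system, the atria and arteries, was at 19.9, 13.2 and 13.4 on the WT arrays and at 22.2, 9.90 and 17.3 on the Glut1-TG arrays with its probe set 1422192_at. These are far under 115 and the groups overlapped, so a difference in Gja5 was not detectable with this probe set. Among arterial endothelial markers, the other gap junction gene Gja4 gave 515.0, 758.4 and 622.3 in WT and 699.8, 716.6 and 532.5 in Glut1-TG hearts (log2 fold change 0.05, standard error 0.19, limma adjusted p = 0.95).

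Other genes of the sodium channel were mostly low or did not differ beyond their spread. Of 9 further pore subunits and relatives 8 had a probe set, 6 of them under the filter with signals between 6.40 and 140.8, and of the 2 tested none was called. Scn7a, an atypical channel that senses sodium, had a log2 fold change of 0.14 (SE 0.16) with its brightest probe set. Its other probe sets had 0.39 and, for 1427495_at, 0.85 (limma adjusted p = 0.60 over all probe sets). The latter gave 79.9 to 146.5 in WT and 167.1 to 218.4 in Glut1-TG hearts. These do not overlap, as for 14.4% of all probe sets in either direction. Scn8a, a neuronal pore subunit, had -0.11 (SE 0.45). Scn2b, the beta-2 subunit and the neighbour of Scn4b in the RefSeq gene table, gave 288.0, 241.1 and 74.1 in WT and 262.4, 182.7 and 364.2 in Glut1-TG hearts with 1457144_at. WT replicate 3 was the low value and the other 5 arrays overlapped. Its log2 fold change was 0.59 (SE 0.51, limma adjusted p = 0.71), -0.02 without WT replicate 3 and 0.12 without WT replicate 1, where another probe set became the brightest. The other probe sets of Scn2b had 0.27 and, for 1436134_at, 0.32 (limma adjusted p = 0.83 over all probe sets). For 1436134_at the signals were 128.8 to 202.4 in WT and 203.4 to 221.6 in Glut1-TG hearts, which do not overlap, as for 14.4% of all probe sets in either direction.

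Among 20 genes listed as partners of cardiac sodium channels, most of them for proteins that bind, anchor or modify the channel, 17 were tested, 1 was called lower, 0 were called higher and 16 did not pass, where 0.599% of all genes tested were called lower. The median log2 fold change of the 17 was -0.02, against 0.02 over all genes tested. The called gene was Rangrf, which encodes MOG1, a Ran-binding protein that helps bring sodium channels to the cell surface. Its signals were 3656, 3554 and 3686 on the WT arrays and 2516, 2748 and 2575 on the Glut1-TG arrays. The highest Glut1-TG signal lay under the lowest WT signal, as in 8.77% of all genes tested, and the gap between the groups, 0.37 on the log2 scale, exceeded the span of 0.05 within WT and 0.13 within Glut1-TG hearts. The mean was 3632 ± 69.2 (SD, n = 3) in WT and 2613 ± 121 (SD, n = 3) in Glut1-TG hearts, and in log2 units Rangrf fell by 0.48 (SE 0.08, limma adjusted p = 0.035). By size it was place 77 of the 79 genes called lower. The call ended without any 1 of the 6 arrays (adjusted p = 0.053 to 0.17), although the log2 fold change stayed between -0.51 and -0.45. Centred on the markers of cardiomyocytes, which was tried only once the values were known, Rangrf had -0.28 (adjusted p = 0.24).

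**Figure D3:**
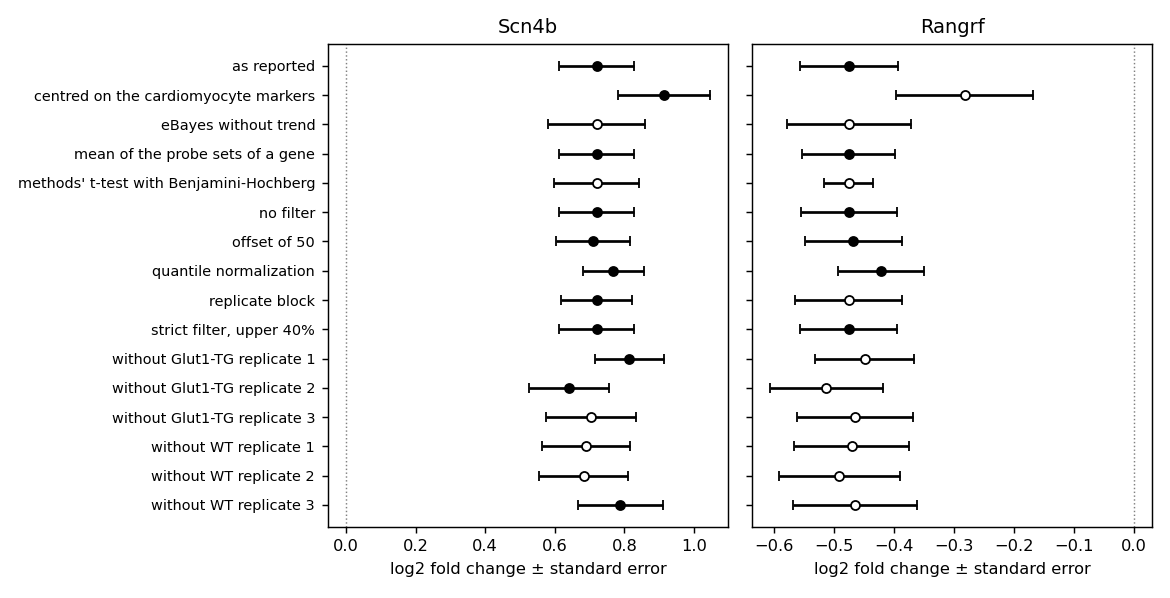
Log2 fold change with its standard error (horizontal axes, different ranges) of Scn4b (left) and Rangrf (right) as reported and in 15 other settings (rows). Filled points passed an adjusted p of 0.05 and open points did not; Scn4b runs from 0.64 to 0.91 and Rangrf from -0.51 to -0.28.

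Among the tested partners the groups of 2 more did not overlap, both lower in Glut1-TG hearts, where 8.77% of all genes tested lay apart in that direction: Gpd1l, an enzyme related to glycerol-3-phosphate dehydrogenase (log2 fold change -0.16, adjusted p = 0.53), and Telo2, a chaperone factor for large kinases whose place among the channel's partners is not established (-0.36, adjusted p = 0.52). They are named for this after their values were seen, and neither passed limma. Fgf12, a channel-binding relative of Fgf13 that was under the filter and not tested, lay apart in the other direction, with 73.8, 98.1 and 66.6 in WT and 116.2, 215.3 and 160.9 in Glut1-TG hearts. Over all probe sets 14.4% lay apart in either direction. The anchor proteins Ank2 and Ank3 had -0.08 and -0.15, and Fgf13, a channel-binding member of the fibroblast growth factor family, had 0.02. Tcap, a Z-disc protein and the brightest of this list, had -0.17 (SE 0.12).

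**Figure D4:**
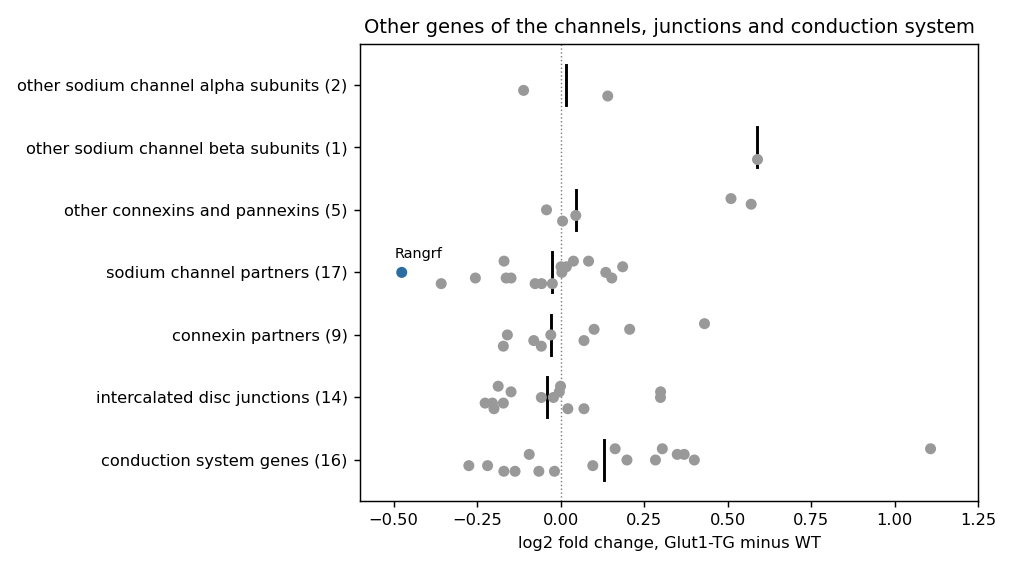
The horizontal axis gives the log2 fold change (Glut1-TG minus WT) of each tested gene (points) of 7 lists (rows, number tested in brackets), with a black line at the median of each list. The blue point is Rangrf (-0.48), the only gene of these lists called; grey points did not pass, and the point farthest to the right is Cntn2 (1.11, standard error 0.70).

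Of 20 other connexins and pannexins 14 had a probe set and 9 of these were under the filter, with signals from 0.90 to 118.3. None of the 5 tested was called, at a median log2 fold change of 0.05. Gjd2, a connexin of neurons, gave 144.9, 148.9 and 168.9 in WT and 279.7, 195.5 and 192.4 in Glut1-TG hearts. Its groups lay apart as higher, as in 8.67% of all genes tested, but it did not pass (log2 fold change 0.51, standard error 0.31, limma adjusted p = 0.58). Gjc3, a connexin of myelinating glia, had 0.57 (SE 0.65), which was -0.04 without WT replicate 1, and Gja3 had 0.01. Gjd3, a connexin of the mouse atrioventricular node, was not analysed here.

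Of 12 genes whose products bind or regulate connexins 9 were tested and 0 were called (median log2 fold change -0.03). Tjp1, the scaffold ZO-1 that binds the tail of Cx43, gave 3426, 3328 and 3379 in WT and 3019, 3257 and 3473 in Glut1-TG hearts (log2 fold change -0.06, standard error 0.09). Cask, a membrane scaffold, had 0.43 (SE 0.23, adjusted p = 0.53), but -0.19 as the mean of its probe sets. At the intercalated disc 14 of 15 listed genes were tested and 0 were called, with 10 of the 14 below 0 (median -0.04) and 3 at an unadjusted p under 0.05, against 11.3% of all genes. These 3 were Dsp, the desmosomal plaque protein desmoplakin (log2 fold change -0.23, adjusted p = 0.38), Ctnna1, alpha-catenin of the adherens junction (-0.20, adjusted p = 0.43), and Jup, plakoglobin, with the opposite sign (0.30, adjusted p = 0.31). Jup gave 3440, 3613 and 3530 in WT and 3803, 4829 and 4451 in Glut1-TG hearts, with no overlap. Ctnnb1, beta-catenin, had -0.17 (adjusted p = 0.45). Of the 14 genes, the groups of 1 (Jup) lay apart as higher and of 3 (Dsp, Ctnna1 and Ctnnb1) as lower. Among all genes tested 8.67% lay apart as higher and 8.77% as lower.

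Of 25 genes that mark or pattern the conduction system 16 were tested and 0 were called by limma, of which 0 reached an unadjusted p under 0.05, and the median log2 fold change was 0.13. Nkx2-5, a transcription factor of all cardiomyocytes, was the brightest and had -0.02 (SE 0.08). Cntn2, a contactin of Purkinje cells, gave 336.7, 36.7 and 227.8 in WT and 218.3, 370.9 and 347.6 in Glut1-TG hearts with 1435166_at. Its log2 fold change was 1.11 (SE 0.70, adjusted p = 0.59), and 0.14 without WT replicate 2. It was -0.60 without WT replicate 1 and -0.47 without Glut1-TG replicate 3, where another probe set, 1450523_at, became the brightest. Over all 6 arrays 1450523_at had -0.30, and the remaining probe sets of Cntn2 had -0.02 and -0.20. Irx3, a transcription factor of the ventricular conduction system, had -0.27 (SE 0.16, adjusted p = 0.55). Hcn4 was not analysed here.

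Markers of the cell types that hold these genes were read beside them. All 12 markers of ventricular cardiomyocytes were measured. Their summed signal was 443265 to 534044 in WT and 414729 to 441377 in Glut1-TG hearts, which lie apart by a narrow margin. For single markers, the groups of 4 of the 12 lay apart as lower and of 0 as higher. Among all genes tested 8.77% lay apart as lower and 8.67% as higher. Of the 12, 11 had log2 fold changes below 0 (median -0.18), 0 were called and 4 reached an unadjusted p under 0.05. Scn4b thus lay in the opposite direction to these 11 cardiomyocyte markers and Rangrf in the same direction. The remaining marker, Irx4, had 0.28 (SE 0.19, limma adjusted p = 0.62) and was left out of the centring. Centring on the other 11 gave Scn4b a log2 fold change of 0.91 (adjusted p = 0.010), with the median of all genes moved to 0.21. This centring shifts each gene by the same amount, so that small values below 0, such as the median of -0.04 of the intercalated disc genes, then lie above 0. Of 12 atrial markers 10 were tested, with a median log2 fold change of 0.04, 5 of the 10 below 0 and 2 called higher. The called genes were the atrial myosin light chains Myl4 (log2 fold change 1.75, limma adjusted p = 0.0085) and Myl7. Myl7 gave 26.5, 90.5 and 14.2 in WT, all under 115, and 377.7, 712.8 and 314.9 in Glut1-TG hearts, so it passed the filter only through the Glut1-TG arrays and no fold is given. Its call (adjusted p = 0.041) ended without WT replicate 1 (0.14) and without WT replicate 3 (0.091), and it was not tested when a Glut1-TG array was left out. Other atrial markers went in both directions. Dkk3 had 0.72 (SE 0.35, limma adjusted p = 0.48), with 159.3 to 194.1 in WT and 213.5 to 467.2 in Glut1-TG hearts, and Fgf12, given above, is also on this list. Bmp10, an atrial growth factor, had -0.61 (SE 0.48) with overlapping groups. Sln, sarcolipin, under the filter, gave 113.5 to 116.8 in WT and 39.4 to 65.3 in Glut1-TG hearts. Of the 10 tested, the groups of 3 lay apart as higher and of 0 as lower, against 8.67% and 8.77% of all genes tested. The summed signal of the atrial markers was 8658 to 10542 in WT and 10010 to 12699 in Glut1-TG hearts. Gja5, which atrial cardiomyocytes also express, was under 115 on all arrays, and Nppa had -0.07.

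Of 14 neuron and Schwann cell markers 9 were tested and 0 were called by limma, with 1 at an unadjusted p under 0.05. The median log2 fold change of the 9 was 0.20. Their summed signal was 3265 to 3516 in WT and 3711 to 4321 in Glut1-TG hearts, with no overlap. Dbh, dopamine beta-hydroxylase of sympathetic fibres, was the brightest of them and the largest part of this sum. It gave 1166, 1370 and 1425 in WT and 1592, 1620 and 1685 in Glut1-TG hearts (log2 fold change 0.31, adjusted p = 0.34). The groups of 2 of the 9, Dbh among them, lay apart as higher and of 0 as lower. Among all genes tested 8.67% lay apart as higher and 8.77% as lower. The 5 tested markers of Purkinje and nodal cells had a median log2 fold change of 0.35, with 1 of the 5 below 0 and 0 called. The groups of 1 of them lay apart, as higher, against 8.67% of all genes tested. The 5 markers summed to 2445 to 2990 in WT and 2910 to 3036 in Glut1-TG hearts, which overlap. For arterial endothelium (8 tested, median 0.03), smooth muscle and pericytes (9 tested, median -0.11), endothelium (10 tested, median 0.03), fibroblasts (10 tested, median 0.09) and skeletal muscle fibres (6 tested, median 0.01) 0 genes were called by limma. At an unadjusted p under 0.05 these 5 lists held 2, 2, 1, 1 and 1 genes. The brightest marker of each, Sox17, Rgs5, Fabp4, Gsn and Ckm, had log2 fold changes of 0.30, -0.11, 0.05, -0.09 and -0.24, and Myl3, the brightest of the cardiomyocyte markers, had -0.17. The part of any of these cell types in the levels of Scn4b and Rangrf was not tested.

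The genes whose log2 signal followed Scn4b most closely over the 6 arrays were Grk5 (Pearson r = 0.99) and Bri3bp (r = 0.99), and 53 of the genes tested had an r above 0.95. Grk5, a kinase of G protein-coupled receptors, gave 1024, 1076 and 1107 in WT and 1790, 2634 and 2315 in Glut1-TG hearts, with the same order of the 3 Glut1-TG arrays as Scn4b. Its log2 fold change was 1.05 (SE 0.14, limma adjusted p = 0.0085), and its call ended without WT replicate 1 (0.054) and without WT replicate 2 (0.0501). For Gja1 the closest genes were Fahd1 (r = 0.99) and Ndufc2 (r = 0.98), with log2 fold changes of -0.09 and -0.12. For Gjc1 they were Tm4sf5 and Otud3 (r = 0.98 each), and for Scn3b Fam98a (r = 0.98) and Akap8 (r = 0.97). For Scn10a they were Cnbp and 4930478L05Rik (r = 0.99 each), and for Gja5 Kdm8 and Cyp7a1 (r = 0.99 each), where the members themselves were under 115. With 6 arrays in 2 groups and 13178 genes such values are a description of likeness only.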

How the data were processed

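Left ventricles of 3 WT and 3 Glut1-TG mice were each hybridised to an Affymetrix mouse array as biotinylated cRNA. The authors processed the scans with GCOS (version not given), and the deposited table gives each probe set a linear intensity and no detection call. After trimming 2% at each end the mean of each array was 500, so no further scaling was applied. Of 45101 probe sets, 64 controls were left out, 34945 had 1 symbol in the platform annotation, 932 several and 9160 none. Values under 1 (48 in all) were set to 1 before log2. The brightest probe set of each gene was used, the lowest 40% of probe sets were left out, and 13178 genes were fitted in R 4.3.3 with limma 3.58.1 (lmFit, eBayes with trend) without covariates, with Benjamini-Hochberg adjustment. The 13 member probe sets came from the same fit over all 34945.

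The members, 7 lists of related genes and 9 marker lists were chosen with earlier results of these data known. The genes named are the members, from each related list the genes called, the brightest and the one of largest change, Scn2b, Gja4 and Tjp1, from each marker list the brightest and those called, Slc2a1, and for each member the 2 genes of highest Pearson correlation. Gja3, Gpd1l, Telo2, Ank2, Ank3, Fgf12, Fgf13, Bmp10, Sln, Dkk3, Gjd2, Ctnna1 and Scn8a were added after their values were seen. Errors of means are SD (n = 3). The number of arrays limits the precision: in 10 simulations of this comparison over 13178 genes, 21.8%, 51.8%, 67.2% and 78.6% of changes of 1.5-fold, 2-fold, 3-fold and 4-fold were found, with a mean of 4.80 false calls. Alternatives were quantile normalization, an offset of 50, no filter, a filter that kept the upper 40%, the mean of probe sets, eBayes without trend, the methods' t-test, the replicate number as a block, leaving out each array, and centring on the cardiomyocyte markers, which was tried only once the values were known. The centring used the ventricular cardiomyocyte markers without Irx4. Promoter windows came from RefSeq (GRCm38.p6), and the 50 bases after the start were not used.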

Additional observations from a re-analysis of the deposited data

How the results depend on the processing

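Scn4b passed in 10 of 15 alternative settings, with log2 fold changes of 0.64 to 0.91. Its value was 0.72 but did not pass with eBayes without trend (adjusted p = 0.23) and with the methods' t-test after Benjamini-Hochberg (0.25). Without each array in turn it ran from 0.64 to 0.81. Rangrf passed in 5 of 15 settings. The number of genes called higher (34) and lower (79) was 75 and 29 after centring on the cardiomyocyte markers, which was tried only once the values were known and which moves the median of all genes to 0.21. It was 2 and 2 with eBayes without trend, 1 and 0 with the methods' t-test, and 10 and 39 when the probe sets of each gene were averaged. Of the genes called, 30.1% were higher, and 42.1% after quantile normalization and 72.1% after centring. Without each array in turn 12 to 32 genes were called higher and 30 to 63 lower. The cause of these changes was not tested. Same-numbered arrays had r = -0.03 to 0.08 between their deviations over 3 pairs, and differently numbered arrays -0.11 to 0.06. With 3 pairs this cannot decide whether the replicate numbers pair the hearts, and the labels do not say. With the replicate block 23 genes were called higher and 46 lower, Scn4b kept its call (adjusted p = 0.032), that of Rangrf ended (0.087), and no other call of the 41 named genes tested changed. The calls of Grk5, Myl4, Myl7 and Slc2a1 also changed under at least 1 setting, and those of the other 35 genes under none of the settings that tested them, which was all 15 for 28 of them and fewer for 7 (10 for Gjc3). Signals under 115, as for Scn10a and Gja5, limit what can be seen.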
